A study of Homo sapiens with 5 samples.

Results

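The genes described here encode the sarcomere and contractile apparatus of striated muscle. They were chosen by name, as structural and differentiation genes of muscle. Of the 59 genes named, 45 were among the 13822 genes in the deposited expression table, with MYLPF listed under its newer symbol MYL11. The other 14, namely ACTA1, ACTN2, ACTN3, CKM, MYH1, MYH2, MYL2, MYL3, MYBPC1, MYOM1, MYOM3, TCAP, UNC45B and XIRP2, were not analysed here.

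A sarcomere is the repeating unit of a myofibril, in which thick filaments of myosin pull on thin filaments of actin when calcium binds to the troponin complex on the thin filament. Z-discs anchor the thin filaments, titin and the M-band hold the thick filaments in place, and dedicated chaperones fold myosin while the filaments are assembled. Rhabdomyosarcoma cells express the myogenic transcription factors and some of these structural genes, but they do not complete differentiation into muscle fibres.

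RH4, an established cell line of alveolar rhabdomyosarcoma, was transfected with 30 nM of a scrambled control siRNA (si-SCR, 3 libraries) or of an siRNA against the back-splice junction of the circular RNA circVAMP3 (si-circVAMP3, 2 libraries). All 5 libraries share the labelled transfection reagent, Dharmafect-1, and the schedule, with fresh medium given at 24 h and a further 24 h of culture before lysis. The study compared the groups to find which poly-A+ transcripts differ when circVAMP3 is depleted. Its methods call the libraries biological replicates. The p-values below weigh the difference between the groups against the spread within the groups, over these 5 samples. The siRNA against circVAMP3, shown because it defines that group, is given 5′ to 3′ as the study lists it, with no part in capitals.
si-circVAMP3: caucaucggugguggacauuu

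Levels are in FPKM, fragments per kilobase of exon normalised to the depth of the library. Whole reads could be recovered from these values for 13815 of the 13822 genes listed, without the abundant MT-CO1, MT-CO2, MT-CO3 and MT-ND4. Summed over the genes recovered, which falls short of the library totals, they came to 24949801, 23586471 and 23528921 reads in si-SCR replicates 1, 2 and 3 and to 17629157 and 27380417 reads in si-circVAMP3 replicates 1 and 2. Values below follow that order of libraries. Genes with a mean of at least 1 FPKM over the 5 libraries were tested with limma, 11094 in all, and a gene was called at a Benjamini-Hochberg adjusted p under 0.05 with a log2 fold change of at least 0.58 in either direction. Fold changes are of log2(FPKM + 0.5), si-circVAMP3 minus si-SCR, a scale that understates changes of genes with low values.

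VAMP3, the host gene of circVAMP3 and a membrane fusion protein, was at 36.4, 35.4 and 37.4 FPKM in si-SCR and at 29.4 and 30.2 FPKM in si-circVAMP3. Both si-circVAMP3 libraries were below the 3 si-SCR libraries, with a log2 fold change of -0.29 (adjusted p = 0.0047), which is smaller than the fold required for a call. The value sums the reads of the whole gene in poly-A+ RNA, and the circular RNA itself was not analysed here. By qRT-PCR, the study also reported a small but significant fall of the linear VAMP3 mRNA with this siRNA. The muscle identity of the line was visible in several markers: MYOD1 lay at 84.3 to 127 FPKM, MYOG at 96.6 to 179 FPKM and CDH15 at 27.1 to 44.5 FPKM. DES, which is also on the smooth muscle list, lay at 248 to 291 FPKM, and the muscle marker MYF6 was not analysed here. Of the other smooth muscle markers, ACTA2 was not analysed here, MYH11 lay at 0.0565 to 0.0804 FPKM and SMTN was higher, at 4.27 to 6.27 FPKM.

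Of the 34 contractile genes tested, 7 were called lower in si-circVAMP3 and 1 was called higher. With 1 library left out, 4 to 8 were called lower and 0 to 3 higher, with 4 lower without si-circVAMP3 replicate 2. The genes called lower were LMOD3, ACTC1, MYOZ2, SMYD1, KLHL41, MYMX and MYL4, which are 20.6% of the genes tested in the list, against 2.76% of all genes tested. The gene called higher was TNNC2, and 1.03% of all genes tested were called higher. At any fold, 19 of the 34 passed the adjusted p, 15 lower and 4 higher, or 55.9% against 32.5% of all genes tested. All libraries of si-circVAMP3 lay below all those of si-SCR for 17 of the 34 (50%, against 29.1% of all genes tested) and above them for 7 (20.6%, against 30.7%), while the groups overlapped for 10. The median log2 fold change was -0.13 over the 34 genes and 0.01 over all genes tested. In these lysates, fewer cells of a type and less RNA per cell cannot be told apart.

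The summed level of the 45 genes listed was 1787, 1772 and 1621 FPKM in si-SCR and 1459 and 1434 FPKM in si-circVAMP3. Both si-circVAMP3 libraries were lowest, and they stayed lowest without ACTC1, at 1474, 1417 and 1308 FPKM against 1290 and 1259 FPKM, where the gap between the groups was narrow. The library of si-SCR replicate 3 stood somewhat apart from its group: it was the lowest of the 3 si-SCR libraries for 24 of the 34 genes tested, against 34.7% of all genes tested. Over all genes tested, log2 values correlated at a Pearson r of 0.997 between si-SCR replicates 1 and 2, of 0.992 and 0.994 between each of these and replicate 3, and of 0.997 between the si-circVAMP3 libraries. Correlations between the groups were 0.982 to 0.986. What set replicate 3 apart was not tested. Without it, the sign of the log2 fold change turned for 5 of the 34 genes (TNNC1, MYL1, CKB, CAV3 and CRYAB), none of which passed the adjusted p with or without it. In the same fit DES, ANKRD1, TNNI1 and TNNT1 came to pass the adjusted p, while FHL1 (0.0521) and TNNT2 (0.0546) lost it. When each of the 5 libraries was left out in turn, 8 of the 19 genes past the adjusted p stayed past it every time, namely the 7 called lower and NEXN, and the other 11 lost it in at least 1 of these smaller fits.

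**Figure D1:**
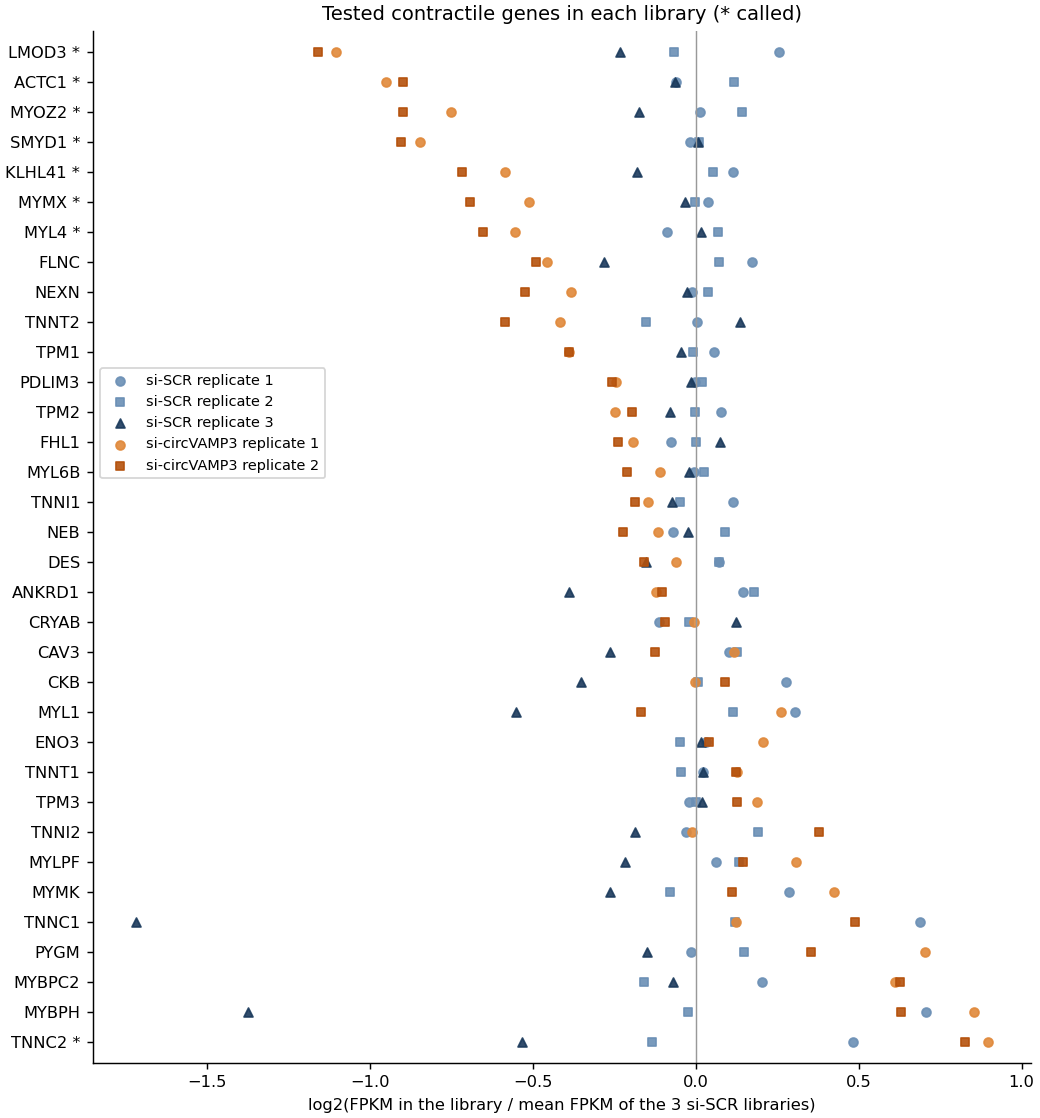
Each row is 1 of the 34 contractile genes tested, ordered by its log2 fold change, and each point is 1 library, placed at the log2 ratio of its FPKM to the mean FPKM of the 3 si-SCR libraries. Circles, squares and triangles are replicates 1, 2 and 3, si-SCR in blue and si-circVAMP3 in orange, and an asterisk marks the 8 genes called. The orange points lie to the left of the blue ones for 17 genes, and the dark triangle of si-SCR replicate 3 lies far to the left for TNNC1 and MYBPH.

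The counts by role below stand against the same 2.76% of all genes tested called lower and 1.03% called higher. Among the thin filament genes, 12 of 15 were tested, of which 2 were called lower and 1 higher. ACTC1, the cardiac alpha-actin that is also the main sarcomeric actin of immature skeletal muscle, was at 313, 355 and 313 FPKM in si-SCR and at 169 and 175 FPKM in si-circVAMP3. Every si-SCR library was far above both si-circVAMP3 libraries, and the means of 327 ± 24.3 (SD, n = 3) and 172 ± 4.37 FPKM (SD, n = 2) gave a log2 fold change of -0.92 (95% confidence interval -1.08 to -0.77, adjusted p = 0.00039). It was the only sarcomeric actin of the list with a value. Actin genes are close in sequence, so reads that match several of them equally leave its level uncertain.

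LMOD3, a leiomodin that nucleates actin and sets thin filament length, was at 6.73, 5.39 and 4.80 FPKM in si-SCR and at 2.62 and 2.53 FPKM in si-circVAMP3. The si-SCR libraries spread widely, yet the lowest of them was well above both si-circVAMP3 libraries. It had the largest fold change of the 34 genes tested in either direction, -0.99 on the log2 scale (95% confidence interval -1.29 to -0.68, adjusted p = 0.0028). That rank depended on the fit: with a pseudocount of 1 LMOD3 was at -0.88 and ACTC1 at -0.92. Without si-SCR replicate 1 LMOD3 was at -0.86, behind MYBPH at 1.05, TNNC2 at 0.95 and ACTC1 at -0.95.

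Tropomyosins lie along actin and block myosin until calcium binds troponin. TPM2, with the highest mean level of the whole list, was at 346, 328 and 311 FPKM in si-SCR and at 277 and 287 FPKM in si-circVAMP3. Its groups did not overlap, and the difference of -0.22 on the log2 scale passed the adjusted p (0.0246) without reaching the fold. TPM1 gave -0.28 (adjusted p = 0.0308) and TPM3 gave 0.15 (adjusted p = 0.0303), both below the fold required. Of the summed FPKM of TPM1, TPM2 and TPM3, TPM3 made up 8.44%, 8.99% and 9.54% in si-SCR and 11.8% and 10.97% in si-circVAMP3. Its share was higher in both si-circVAMP3 libraries than in any si-SCR library, and the share of TPM2 was lower, at 90.0% to 91.1% against 87.9% and 88.7%. The size of these shares depends on exon length, which was 3183 bases for TPM2, 13765 for TPM1 and 15156 for TPM3. Reads a library were 16313 to 29413 for TPM2 and 10393 to 15492 for TPM3, so TPM3 was a larger part by reads than by FPKM. TPM4, a tropomyosin of non-muscle cells that is left out of these shares, lay at 37.5 to 40.6 FPKM and overlapped between the groups.

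The troponin genes did not move as a block. TNNT1, the slow skeletal troponin T that ties the complex to tropomyosin, was at 219, 209 and 219 FPKM in si-SCR and at 236 and 235 FPKM in si-circVAMP3. The groups did not overlap, but the log2 fold change of 0.13 missed the adjusted p (0.0532, and 0.0425 without si-SCR replicate 3). TNNT1 held 98.9% to 99.4% of the summed troponin T FPKM in the 5 libraries. TNNT2, the cardiac isoform also made in embryonic skeletal muscle, was at 1.45, 1.30 and 1.58 FPKM against 1.08 and 0.960 FPKM, and its log2 fold change of -0.35 passed the adjusted p (0.0325) and not the fold. Of its exon bases, 15.4% were shared with an unnamed gene on the same strand, and reads there are uncertain.

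TNNC2, the calcium-binding subunit of fast fibres, was at 2.39, 1.56 and 1.18 FPKM in si-SCR and at 3.19 and 3.03 FPKM in si-circVAMP3. The si-circVAMP3 libraries lay above the 3 si-SCR libraries, which differed widely among themselves. The log2 fold change was 0.74 (95% confidence interval 0.24 to 1.24, adjusted p = 0.0358), on 25 to 74 reads a library. The call was lost when any library other than si-SCR replicate 1 was left out, with adjusted p-values of 0.101 without si-SCR replicate 2, 0.165 without si-circVAMP3 replicate 1 and 0.141 without si-circVAMP3 replicate 2. Without si-SCR replicate 3 the log2 fold change was 0.56, under the fold required.

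TNNC1, the subunit of slow and cardiac muscle, was at 2.23, 1.51 and 0.422 FPKM in si-SCR and at 1.51 and 1.95 FPKM in si-circVAMP3. Its groups overlapped, since si-SCR replicate 3 was far below and si-SCR replicate 1 above the other libraries. Its log2 fold change turned from 0.37 to -0.08 without si-SCR replicate 3. It was 0.71 without si-SCR replicate 1 and 0.23 without si-circVAMP3 replicate 2. The inhibitory subunits TNNI1 and TNNI2 gave -0.16 (adjusted p = 0.104) and 0.17 (adjusted p = 0.368), and TNNI1 gave -0.19 (adjusted p = 0.0499) without si-SCR replicate 3. TNNI2 gave 0.35 without si-circVAMP3 replicate 1 and -0.0046 without si-circVAMP3 replicate 2. NEB, the giant ruler protein of the thin filament, gave -0.15 (adjusted p = 0.129). TNNT3, the fast troponin T, was under a mean of 1 FPKM, at 0.842, 0.707 and 0.841 FPKM in si-SCR and at 0.536 and 0.550 FPKM in si-circVAMP3. Its groups did not overlap, and with the filter on low values removed its log2 fold change was -0.31 (adjusted p = 0.0298), short of the fold on that scale. Limma voom on the recovered reads gave -0.54 with an adjusted p of 0.0987. TMOD1, which caps the pointed end of actin, was also under the filter, and its groups overlapped.

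**Figure D2:**
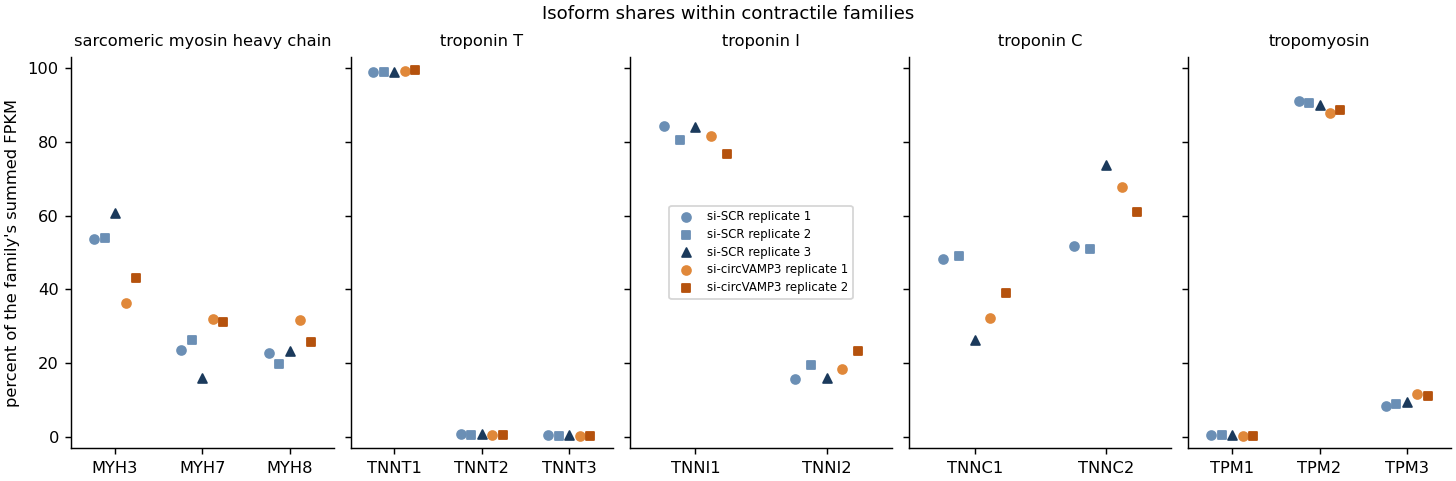
Each point is the percent of a family's summed FPKM held by 1 gene in 1 library, for sarcomeric myosin heavy chains, the 3 troponin subunits and the tropomyosins, with symbols and colours for libraries as in the plot by library. MYH3 was lower, and MYH7 and MYH8 higher, in both si-circVAMP3 libraries, while TNNT1 and TPM2 held most of their families in all 5 libraries.

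Of the 14 thick filament genes, 6 were tested, of which 1 was called lower, against 2.76% of all genes tested. MYL4, the essential light chain of atrial and embryonic muscle myosin, was at 38.0, 42.3 and 40.8 FPKM in si-SCR and at 27.5 and 25.7 FPKM in si-circVAMP3. The si-SCR libraries were close to each other and all above the si-circVAMP3 libraries. The log2 fold change of -0.59 (adjusted p = 0.0012) lay just past the fold required, and it was -0.56 without si-SCR replicate 2 and -0.54 without si-circVAMP3 replicate 2, short of a call in each case. MYL6B, an essential light chain shared by slow muscle and non-muscle myosin and the thick filament gene with the highest level, was at 95.8, 97.7 and 94.7 FPKM against 89.0 and 83.0 FPKM. Its groups were apart by little, and its log2 fold change of -0.16 passed the adjusted p (0.0348) without reaching the fold.

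MYBPC2, the fast isoform of the myosin-binding protein C that ties thick filaments together, was at 4.75, 3.69 and 3.92 FPKM in si-SCR and at 6.30 and 6.37 FPKM in si-circVAMP3. It was higher in each si-circVAMP3 library than in any si-SCR library. The log2 fold change of 0.57 (adjusted p = 0.0076) fell just short of the fold required, and it was 0.67 without si-SCR replicate 1, which was a call. It was also called with a pseudocount of 0.1, at 0.62, and by limma voom on the recovered reads, at 0.63 with and without the filter, the second gene called higher there beside TNNC2. Its adjusted p was 0.0570 without si-circVAMP3 replicate 1 and 0.0619 without si-circVAMP3 replicate 2. MYBPH, a shorter relative of that protein, had the largest fold change of the thick filament genes, with 2.52, 1.52 and 0.595 FPKM in si-SCR and 2.79 and 2.39 FPKM in si-circVAMP3. Its groups overlapped at si-SCR replicate 1, and the log2 fold change of 0.71 did not pass (adjusted p = 0.195). It was 1.05 (adjusted p = 0.0409) without si-SCR replicate 1, a call, and 0.32 (adjusted p = 0.217) without si-SCR replicate 3.

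MYL1 and MYLPF, light chains of fast fibres, gave log2 fold changes of 0.08 (adjusted p = 0.815) and 0.21 (adjusted p = 0.167). Without si-SCR replicate 3 these were -0.15 and 0.12, and MYL1 was also below 0 without si-circVAMP3 replicate 1, at -0.12. The 3 sarcomeric heavy chains listed, which carry the motor itself, were under a mean of 1 FPKM. MYH3, the embryonic heavy chain, was at 0.746, 0.665 and 0.708 FPKM in si-SCR and at 0.5005 and 0.551 FPKM in si-circVAMP3, on 62 to 133 reads a library. It held 53.6%, 53.8% and 60.7% of the summed heavy chain FPKM in si-SCR and 36.4% and 43.2% in si-circVAMP3. The shares of MYH7, the slow heavy chain, and MYH8, the perinatal one, were higher in both si-circVAMP3 libraries than in any si-SCR library. These shares rest on few reads, 28 to 69 a library for MYH7 and 37 to 57 for MYH8. The sum itself overlapped between the groups, at 1.17 to 1.39 FPKM in si-SCR and 1.28 and 1.38 FPKM in si-circVAMP3. With the filter on low values removed, none of the 3 genes passed the adjusted p, which was 0.0539 for MYH3, 0.126 for MYH7 and 0.157 for MYH8. By limma voom on the recovered reads of all genes, the adjusted p was 0.0744, 0.120 and 0.214 in the same order. The shares themselves were not tested.

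TTN encodes titin, the spring that spans from Z-disc to M-band. It was at 0.872, 0.933 and 1.13 FPKM in si-SCR and at 0.582 and 0.468 FPKM in si-circVAMP3. Every si-SCR library was well above both si-circVAMP3 libraries. Its mean of 0.797 FPKM kept it from the test, although 1283 to 3347 reads a library stood behind it, because FPKM divides by an annotated exon length of 118976 bases. Tested by limma voom on the recovered reads of all genes, an alternative chosen after seeing the data, its log2 fold change was -0.91 (adjusted p = 0.00053). With the log2(FPKM + 0.5) values of all genes it was -0.53 (adjusted p = 0.0115), short of the fold. MYOM2, an M-band protein and the only myomesin listed, was at 0.0841 to 0.193 FPKM.

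Of the 15 genes of the Z-disc and its linkers, 7 were tested and 1 was called lower, against 2.76% of all genes tested. MYOZ2, a calsarcin that binds alpha-actinin and calcineurin at the Z-disc, was at 7.80, 8.54 and 6.85 FPKM in si-SCR and at 4.59 and 4.14 FPKM in si-circVAMP3. The groups were well separated, with a log2 fold change of -0.75 (95% confidence interval -0.98 to -0.52, adjusted p = 0.0026). DES, the muscle intermediate filament that links Z-discs of neighbouring myofibrils, had the highest level of this role, at 291, 291 and 249 FPKM in si-SCR and 266 and 248 FPKM in si-circVAMP3. Its groups overlapped because si-SCR replicate 3 was as low as si-circVAMP3 replicate 2, and its log2 fold change was -0.11 (adjusted p = 0.336). Without si-SCR replicate 3 it was -0.18 (adjusted p = 0.0249), still short of the fold. It was nearer to no change without si-SCR replicate 1 or 2, at -0.07 each, and without si-circVAMP3 replicate 2, at -0.06.

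FLNC, the muscle filamin that crosslinks actin at Z-discs and membrane, was at 62.8, 58.5 and 45.9 FPKM in si-SCR and at 40.6 and 39.6 FPKM in si-circVAMP3. The groups did not overlap, though si-SCR replicate 3 came close to the si-circVAMP3 libraries. The log2 fold change of -0.46 (adjusted p = 0.0320) did not reach the fold, and without si-SCR replicate 3 it was -0.59, a call. Leaving out any of the other 4 libraries lost the adjusted p, which was then 0.0592 to 0.152, and the log2 fold change was -0.37 without si-SCR replicate 1. NEXN, an actin-binding protein of the Z-disc, gave -0.41 (adjusted p = 0.0049), PDLIM3, an alpha-actinin ligand, -0.24 (adjusted p = 0.0083), and FHL1, a LIM-domain protein, -0.20 (adjusted p = 0.0395), with groups that did not overlap and no call. ANKRD1, a stretch-responsive partner of titin, overlapped between the groups (-0.08, adjusted p = 0.715), and gave -0.24 (adjusted p = 0.0343) without si-SCR replicate 3. Without si-SCR replicate 1 it gave -0.0090, and without si-SCR replicate 2 it gave 0.0067. CSRP3, a LIM protein of the Z-disc, was under the filter at 0.505, 0.368 and 0.319 FPKM in si-SCR and at 0.661 and 0.723 FPKM in si-circVAMP3. It was higher in both si-circVAMP3 libraries, opposite to the called gene of its role, and gave 0.41 (adjusted p = 0.0262) with the filter removed, short of the fold on that scale. By limma voom on the recovered reads it gave 0.81, past the fold, with an adjusted p of 0.0689. LDB3, MYPN and XIRP1, under the filter too, were at 0.0334 to 0.170 FPKM with groups that overlapped.

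All 3 listed genes that serve folding and turnover of filament proteins were tested, and 2 were called lower, against 2.76% of all genes tested. KLHL41, a kelch protein that stabilises nebulin and other thin filament proteins, was at 40.5, 38.8 and 33.0 FPKM in si-SCR and at 24.9 and 22.8 FPKM in si-circVAMP3. Both si-circVAMP3 libraries were below all of si-SCR, with a log2 fold change of -0.64 (adjusted p = 0.0040). The call was lost by a small margin without si-SCR replicate 1 (-0.577) and without si-circVAMP3 replicate 2 (-0.57). Of its exon bases, 35.8% were shared with an unnamed gene on the same strand, so its level is uncertain.

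SMYD1, a muscle methyltransferase that works with the myosin chaperones, was at 2.69, 2.74 and 2.74 FPKM in si-SCR and at 1.52 and 1.46 FPKM in si-circVAMP3. The libraries within each group were almost equal and the groups far apart. The mean of si-circVAMP3 was 45.4% lower than that of si-SCR, and on the scale tested the log2 fold change was -0.70 (95% confidence interval -0.86 to -0.54, adjusted p = 0.0010). CRYAB, a small heat shock protein that protects desmin, overlapped between the groups (-0.04, adjusted p = 0.730, and 0.02 without si-SCR replicate 3).

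Of the 3 genes of membrane and myoblast fusion, all were tested and 1 was called lower, against 2.76% of all genes tested. MYMX, the micropeptide myomixer that drives fusion of myoblasts, was at 75.3, 73.2 and 71.7 FPKM in si-SCR and at 51.5 and 45.5 FPKM in si-circVAMP3. The si-SCR libraries were close together and all higher. The log2 fold change was -0.60 (adjusted p = 0.0012), and it fell short of a call at -0.51 without si-circVAMP3 replicate 2 and at -0.578 without si-SCR replicate 1. MYMK, the membrane protein myomaker that acts in the same fusion step, was at 4.99, 3.88 and 3.42 FPKM against 5.50 and 4.42 FPKM. These groups overlapped, and the log2 fold change was 0.26 (adjusted p = 0.247), with 0.11 to 0.40 when 1 library was left out, lowest without si-circVAMP3 replicate 1 and highest without si-circVAMP3 replicate 2. CAV3, the caveolin of muscle membrane, overlapped as well (0.01, adjusted p = 0.974), and its log2 fold change was -0.11 without si-SCR replicate 3.

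None of the 3 energy enzymes listed was called by limma, and 1 was at an unadjusted p under 0.05, as were 44.2% of all genes tested. CKB, the brain-type creatine kinase that immature muscle uses to buffer ATP, was at 115, 95.2 and 74.2 FPKM in si-SCR and at 94.5 and 101 FPKM in si-circVAMP3. The si-SCR libraries spread around both si-circVAMP3 libraries, and the log2 fold change was 0.07 (adjusted p = 0.787) and turned to -0.10 without si-SCR replicate 3. PYGM, the muscle glycogen phosphorylase, was at 2.97, 3.32 and 2.70 FPKM in si-SCR and at 4.89 and 3.83 FPKM in si-circVAMP3. Both si-circVAMP3 libraries were higher, with a log2 fold change of 0.47 (adjusted p = 0.0247) that did not reach the fold. It was 0.63 without si-circVAMP3 replicate 2, a call, and 0.31 (adjusted p = 0.154) without si-circVAMP3 replicate 1, and its adjusted p was 0.0549 without si-SCR replicate 1. ENO3, the muscle enolase, gave 0.12 (adjusted p = 0.175), with 0.04 without si-circVAMP3 replicate 1 and 0.20 without si-circVAMP3 replicate 2.

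**Figure D3:**
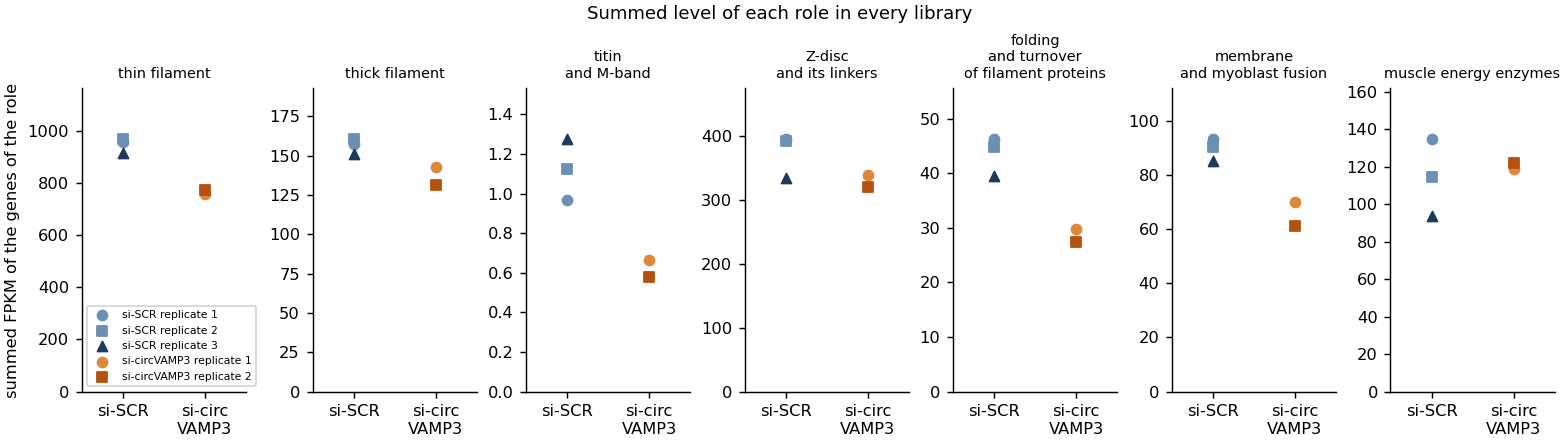
Summed FPKM of the listed genes of each role in every library, si-SCR on the left and si-circVAMP3 on the right of each panel, with an axis from 0 for each role. The si-circVAMP3 libraries were lowest for thin filament, thick filament, titin and M-band, folding and turnover, and membrane and fusion genes, and overlapped with si-SCR for the energy enzymes and the Z-disc genes.

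**Figure D4:**
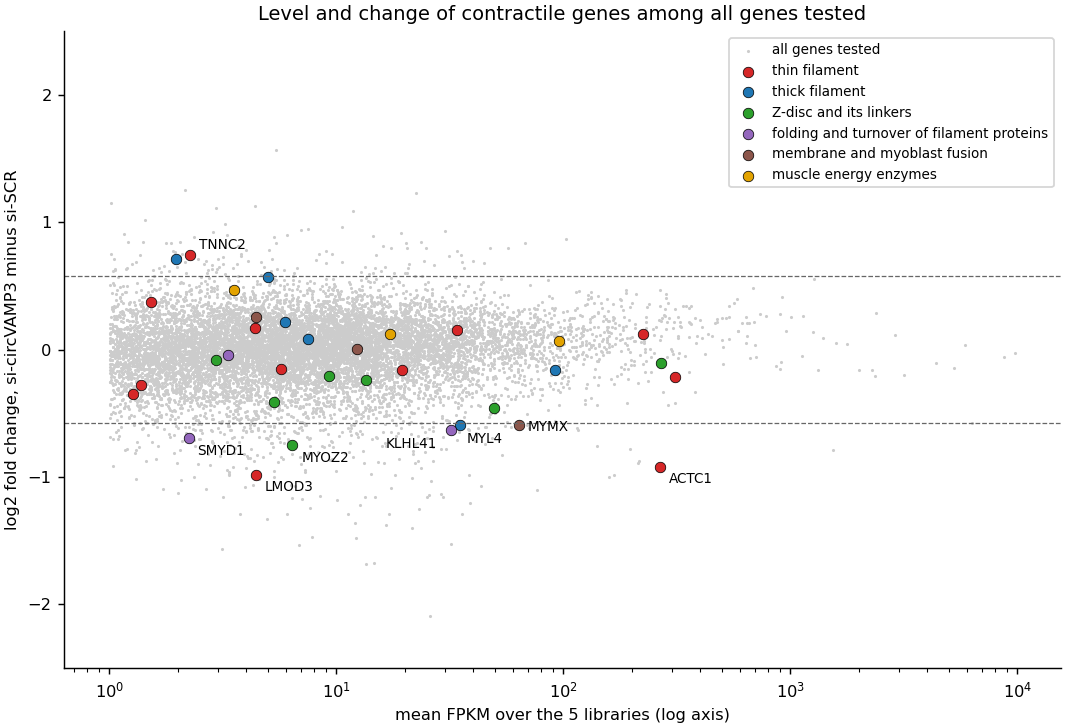
Log2 fold change against mean FPKM (log axis) for the 11094 genes tested in grey and the 34 contractile genes coloured by role, with dashed lines at a log2 fold change of 0.58 in either direction and names for the 8 genes called. The genes called lower ranged in mean level from SMYD1 at 2.23 FPKM to ACTC1 at 265 FPKM.

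Promoter sequences are shown for the 5 genes called lower that could be matched, because these genes were lower together. RefSeq promoters (GRCh38.p14), 250 bases before to 50 bases after the gene start, were matched for 29 of the 45 genes listed and for 5 of the 7 called lower. Capitals mark matches, on either strand, to the E-box CANNTG, which myogenic factors bind, to the CArG box of serum response factor and to the MEF2 box. ACTC1 lies at chr15:34795500-34795799 on the minus strand, SMYD1 at chr2:88067575-88067874 on the plus strand, MYOZ2 at chr4:119135582-119135881 on the plus strand, KLHL41 at chr2:169509452-169509751 on the plus strand and LMOD3 at chr3:69122546-69122845 on the minus strand.
ACTC1: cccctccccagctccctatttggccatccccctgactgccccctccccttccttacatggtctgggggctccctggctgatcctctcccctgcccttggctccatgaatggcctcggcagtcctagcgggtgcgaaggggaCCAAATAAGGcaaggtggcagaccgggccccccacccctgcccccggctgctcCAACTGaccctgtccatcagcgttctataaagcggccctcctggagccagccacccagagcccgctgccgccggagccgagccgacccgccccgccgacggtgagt
SMYD1: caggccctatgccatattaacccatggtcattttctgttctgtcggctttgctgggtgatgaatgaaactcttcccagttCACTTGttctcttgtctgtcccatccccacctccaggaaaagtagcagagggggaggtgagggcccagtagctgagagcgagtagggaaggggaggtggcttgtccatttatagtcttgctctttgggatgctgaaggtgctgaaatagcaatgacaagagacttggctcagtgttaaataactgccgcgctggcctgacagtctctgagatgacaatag
MYOZ2: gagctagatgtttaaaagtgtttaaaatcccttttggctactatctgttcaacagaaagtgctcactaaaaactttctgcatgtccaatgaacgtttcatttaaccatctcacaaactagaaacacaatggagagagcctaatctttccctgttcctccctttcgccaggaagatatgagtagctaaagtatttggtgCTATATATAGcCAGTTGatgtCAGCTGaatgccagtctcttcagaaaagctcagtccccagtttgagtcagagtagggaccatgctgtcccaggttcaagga
KLHL41: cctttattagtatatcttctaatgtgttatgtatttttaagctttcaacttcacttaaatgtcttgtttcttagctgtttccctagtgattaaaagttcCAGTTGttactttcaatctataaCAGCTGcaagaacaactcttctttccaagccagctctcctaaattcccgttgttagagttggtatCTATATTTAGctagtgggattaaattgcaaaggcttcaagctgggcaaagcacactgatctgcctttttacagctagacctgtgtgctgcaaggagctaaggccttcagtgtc
LMOD3: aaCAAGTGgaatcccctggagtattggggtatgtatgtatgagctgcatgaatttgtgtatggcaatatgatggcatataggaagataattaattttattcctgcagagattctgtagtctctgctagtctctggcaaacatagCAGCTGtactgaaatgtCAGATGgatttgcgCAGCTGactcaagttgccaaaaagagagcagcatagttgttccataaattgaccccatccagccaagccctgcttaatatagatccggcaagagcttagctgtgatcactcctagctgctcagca

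CANNTG was in 24 of the 29 promoters matched and in all 5 of those called lower, against 68.9% of 27305 promoters. Its subset CAGCTG was in 9 of 29, among them KLHL41, LMOD3 and MYOZ2, against 17.7% of all promoters. The CArG box was in 2 of 29, ACTC1 and LDB3, against 1.29%, and the MEF2 box in 4 of 29, KLHL41, MYOZ2, TTN and CKB, against 0.593%. The letters describe these windows only.

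Other genes of the pathway were read from lists set beside the contractile genes, and their counts stand against 2.76% of all genes tested called lower and 1.03% called higher. Of 15 other sarcomere genes tested, 1 was called: MYLK2, the kinase of the skeletal myosin light chain, was at 5.38, 4.22 and 3.60 FPKM in si-SCR and at 8.50 and 8.54 FPKM in si-circVAMP3. The si-SCR libraries were all well below, with a log2 fold change of 0.90 (adjusted p = 0.0054). CAPZB, the actin capping subunit with the highest level of that list, gave 0.10 (adjusted p = 0.144). Of 14 calcium handling and neuromuscular genes tested, 1 was called lower, the fetal acetylcholine receptor subunit CHRNG, at 13.9, 14.0 and 13.7 FPKM against 9.34 and 8.77 FPKM (log2 fold change -0.59, adjusted p = 0.00072). CHRNA1, the most abundant gene of that list, gave -0.06 (adjusted p = 0.301).

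Of 19 myogenic factors and alveolar rhabdomyosarcoma genes tested, 1 was called lower and 2 higher, against 2.76% and 1.03% of all genes tested. MYOG, the factor that switches on terminal muscle differentiation, was at 175, 179 and 149 FPKM in si-SCR and at 101 and 96.6 FPKM in si-circVAMP3. The groups were far apart, with a log2 fold change of -0.76 (adjusted p = 0.0015). ID3, an inhibitor of the E-protein partners of myogenic factors, was at 80.3, 86.9 and 65.0 FPKM against 133 and 148 FPKM (0.86, adjusted p = 0.0035), and ID1, of the same family, at 19.1, 17.9 and 13.1 FPKM against 21.7 and 31.1 FPKM (0.64, adjusted p = 0.0454). FGFR4, a receptor with the highest level of that list, overlapped between the groups (-0.26, adjusted p = 0.0963). MYOD1 overlapped as well, at 115, 105 and 84.3 FPKM in si-SCR and at 106 and 127 FPKM in si-circVAMP3 (0.20, adjusted p = 0.311). Whether these factors had a part in the contractile genes was not tested.

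None of the 19 non-muscle counterparts tested was called by limma, with 10 at an unadjusted p under 0.05 against 44.2% of all genes tested, and their most abundant gene, ACTB, gave -0.16 (adjusted p = 0.0499). The smooth muscle list had 7 of 11 genes in the table, summing to 645, 625 and 565 FPKM in si-SCR and 548 and 541 FPKM in si-circVAMP3, and nearly all of that sum was TPM2 and DES, which are contractile genes of the present list too. Of its defining markers, TAGLN was at 0.841, 0.867 and 0.747 FPKM in si-SCR and at 0.906 and 0.922 FPKM in si-circVAMP3, higher in both of the latter, and CNN1 lay at 0.0761 to 0.127 FPKM. The fibroblast list had 5 of 10 genes in the table, 1 tested by limma and at an unadjusted p under 0.05 but not called, with sums of 35.7, 33.0 and 33.5 FPKM against 31.5 and 29.0 FPKM. Its most abundant gene, COL3A1, gave -0.18 (adjusted p = 0.0501), and made up most of that sum, while COL1A1 lay at 0.127 to 0.233 FPKM. PDGFRB of the same list was higher in both si-circVAMP3 libraries, at 0.226, 0.258 and 0.225 FPKM against 0.355 and 0.370 FPKM, too low to be tested. The neuronal list had 2 of 9 genes in the table and none tested, with sums of 1.2002, 1.14 and 1.23 FPKM in si-SCR and 0.910 and 1.06 FPKM in si-circVAMP3. DCX, the higher, was at 0.904, 0.839 and 1.12 FPKM against 0.666 and 0.813 FPKM, lower in both si-circVAMP3 libraries, and its part in the contractile genes was not tested.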

How the data were processed

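Poly-A+ RNA of RH4 cells was sequenced from 3 si-SCR and 2 si-circVAMP3 samples. The authors trimmed reads with Trimmomatic, aligned them with STAR 2.5.2b to GRCh38 with Ensembl 99 genes, counted them by strand with HTSeq, removed genes with low counts and deposited FPKM values from edgeR; bcl2fastq 2.20.0.422 is named in the labels. Groups came from sample titles. The contractile genes and all other gene lists were chosen with earlier results of these data known.

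Differences were fitted with limma 3.58.1 in R 4.3.3 (trend, unpaired) on log2(FPKM + 0.5) for genes with a mean of at least 1 FPKM, adjusted by the Benjamini-Hochberg method over all 11094 genes; the fit was tested on simulated data. Symbols were found for 13783 of 13822 gene identifiers. Whole reads were recovered for 99.9% of genes from ratios of FPKM between libraries (relative tolerance 3e-12). Exon overlaps came from GENCODE 44. The named genes were VAMP3, every contractile gene called, the most abundant and most changed gene of each role, and from each other list its most abundant and called genes; others appear with values only. The result of 1 gene is not reported here. Alternatives changed the pseudocount, filter, scaling, variance trend, fold threshold and replicate block, left out each library, or, chosen after seeing the data, used limma voom on recovered reads.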

Additional observations from a re-analysis of the deposited data

How the results depend on the processing

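The main analysis called 420 genes, with 1 contractile gene higher and 7 lower. A mean of at least 5 FPKM gave 243 genes, 0 contractile genes higher and 5 lower, with fewer genes tested. With no minimum fold change the counts were 3606 genes, 4 higher and 15 lower. A pseudocount of 0.1 gave 559 genes and 2 contractile genes higher, with 155 of all genes called higher against 114 in the main analysis. Limma voom on recovered reads, chosen after seeing the data, gave 2 contractile genes higher with the filter and 2 without it. It called 585 genes with the filter, 165 of them higher, and 878 genes without it, 264 of them higher. Replicates 1 and 2 share only a number across the groups, and same-numbered libraries deviated with correlations of -0.17 and -0.04 over genes. With the replicate block, 445 genes were called, 0 contractile genes higher and 8 lower. As replicate 3 exists only in si-SCR, the block gave the same log2 fold changes as leaving that library out. Both fits are counted among the alternatives below, although they are not separate checks of the fold changes. Leaving out 1 library gave 395 to 468 genes, 0 to 3 contractile genes higher and 4 to 8 lower, with 4 lower without si-circVAMP3 replicate 2 and 8 without si-SCR replicate 3; where 1 si-circVAMP3 library remained, it was assumed to vary like si-SCR. The median log2 fold change of the contractile genes, -0.13, was -0.17 to -0.09 with 1 library left out and stayed below 0 in every alternative run. ACTC1, LMOD3, MYOZ2 and SMYD1 kept their call in every alternative that tested them, KLHL41, MYMX and MYL4 lost it in 2 of 16 each, and TNNC2 lost it in 5 of 15. The causes of these shifts were not tested. Reads a library were 25 to 74 for TNNC2, 12 to 68 for TNNC1 and 27 to 125 for MYBPH.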

Other observations

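Of 17 proliferation genes tested, 1 was called lower, against 2.76% of all genes tested: PLK1, a mitotic kinase, was at 50.3, 49.3 and 46.1 FPKM in si-SCR and at 30.7 and 30.4 FPKM in si-circVAMP3 (log2 fold change -0.66, adjusted p = 0.00048). CCNB1, the mitotic cyclin with the highest level of that list, gave -0.06 (adjusted p = 0.417). Of 4 interferon response genes tested, 1 was called higher, against 1.03% of all genes tested: IFI44 was at 2.32, 2.32 and 2.05 FPKM against 4.13 and 3.36 FPKM (0.63, adjusted p = 0.0054). None of the 13 mitochondrially encoded genes tested was called by limma, with 3 at an unadjusted p under 0.05 against 44.2% of all genes tested, and MT-CO3, the most abundant, gave -0.03 (adjusted p = 0.733).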
